A study of Homo sapiens with 6 samples.

Results

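The anaphase-promoting complex, or cyclosome (APC/C), is a ubiquitin ligase that marks securin, cyclins and other mitotic proteins for the proteasome, and so starts anaphase and ends mitosis. It works with a co-activator that brings substrates to it, CDC20 in mitosis and FZR1 (Cdh1) from late mitosis into G1. When nocodazole prevents spindle assembly, the spindle checkpoint binds CDC20 and restrains the complex and cells stop in prometaphase. Here the transcripts of 10 genes were followed, namely ANAPC1, ANAPC2, ANAPC4, ANAPC5, ANAPC7, ANAPC10, CDC16, CDC23, CDC27 and FZR1. They were taken by name from the 37879 rows of the deposited table, and all 10 had a row. FZR1 is a co-activator, not a subunit.

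HEK293T cells, a human embryonic kidney line that carries the SV40 large T antigen, were transfected with an empty vector (control, n = 3) or with plasmids coding for Stau155-FLAG, the tagged 55-kDa form of the RNA-binding protein Staufen1 (Stau1, n = 3). Per the study's methods, transfection was transient and a Rous sarcoma virus promoter drove the Stau1 plasmid. Per the labels, both groups received 50 ng/ml nocodazole for 15 h, and the methods state a longer time. Total RNA of each sample was hybridised to 1 array of the Illumina BeadChip format, in which each gene is read by many beads and arrays may share a chip. Which arrays did so is not given in the sources used here. Nothing in the labels says whether replicates came from separate cultures, so the p-values measure the spread between these samples, which may be technical.

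A row counts as detected on an array when its deposited detection p is under 0.05. For a row of 1 probe, this p compares its intensity with negative control beads. In rows that average several probes it did not follow intensity alone. STAU1 (at least 3 probes), for example, was at 31.7 times the background mean on control replicate 2, with a detection p of 0.012. Detection is thus not the same measure for both kinds of row. By their bead numbers, ANAPC1, ANAPC2 and CDC16 average more than 1 probe. Rows detected on 3 or more arrays entered the comparison, 13285 in all. The neurofilament genes NEFL and NEFM, which mark this line, were detected on 6 of 6 arrays, LHX1 on 4 and PAX2 on 1. PTPRC (blood) and ALB (liver) were detected on 0 arrays, and COL1A1 and PECAM1 on 6 with detection p between 0.0079 and 0.042, near background. Control replicate 1 stood furthest from the other arrays (Pearson's r from 0.987 to 0.991 over the compared rows, which are not independent). STAU1 was 0.15 higher on the log2 scale in the Stau1 group (SE 0.09, limma adjusted p = 0.999), and the groups did not overlap. Whether the probes of this row read the plasmid's transcript was not examined, so 0.15 is not a measure of plasmid expression. At the protein level, the study's western blot showed the tagged form below endogenous Stau1. In RNA from whole cultures, fewer cells with a transcript and less of it per cell cannot be told apart.

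Of the 10 genes, 9 were compared and 1, CDC27, was not detected on any array. With limma, 0 of the 9 passed an adjusted p of 0.05 (adjusted p = 0.999 for each), and 0 of all 13285 rows did (0% called). At an unadjusted p under 0.05 there were 0 of the 9, against 3.73% of all rows (2.4% higher and 1.32% lower in the Stau1 group). The methods' t-test, run on the same background-corrected and quantile-normalized values, also gave 0 of the 9 at that p, against 3.48% of all rows. The changes ran from -0.057 (ANAPC5) to 0.35 (ANAPC2) on the log2 scale, Stau1 minus control. Their median was 0.07, against -0.0021 over all compared rows, and 6 of the 9 had a higher mean in the Stau1 group, against 49.4% of all rows. For 7 of the 9, the 95% interval lay within 1.5-fold in both directions, as it did for 86.7% of all rows. The other 2 were ANAPC2 and FZR1, whose signal was low.

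**Figure D1:**
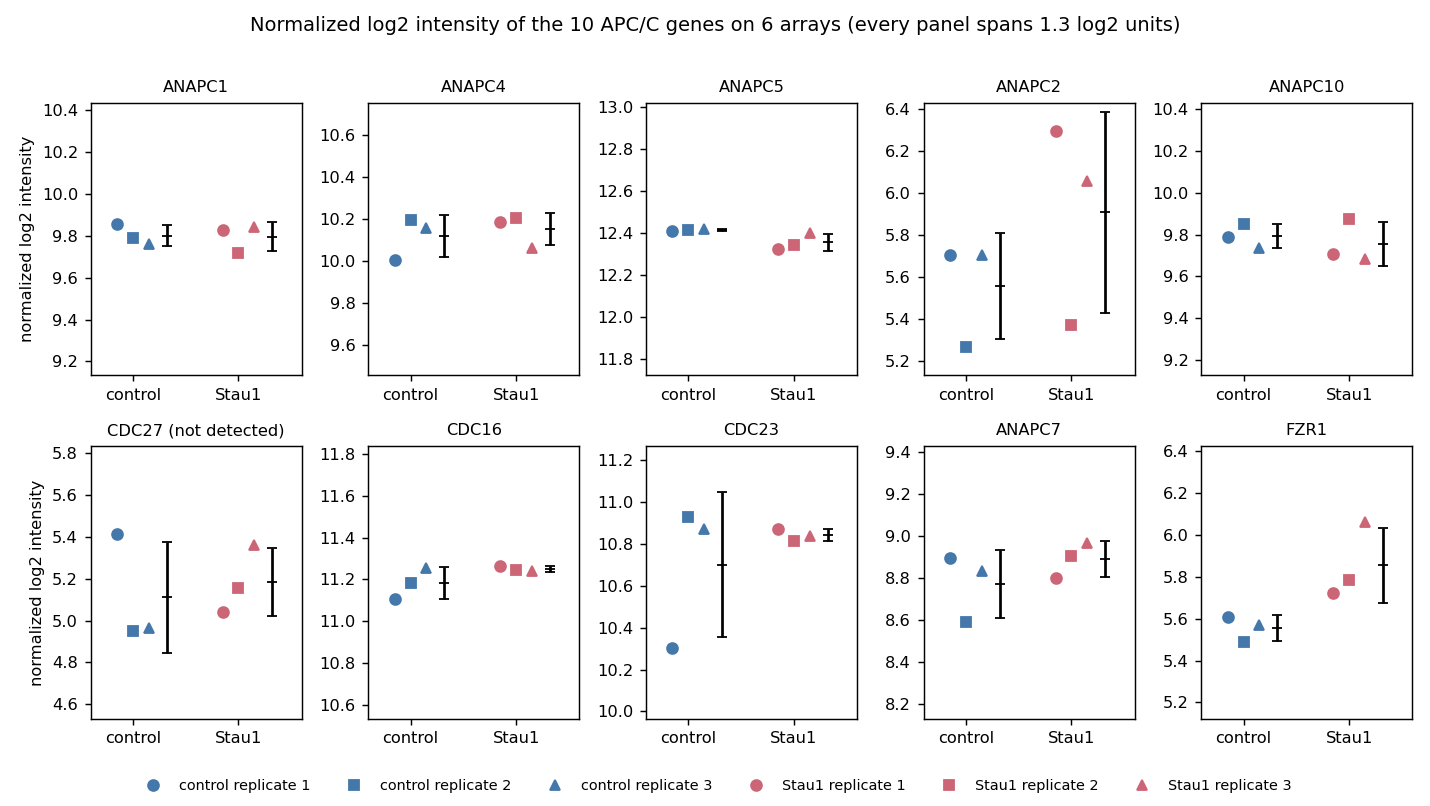
Normalized log2 intensity of each of the 10 genes (vertical axis) on the control and Stau1 arrays, with 1 marker per array, and black bars for the mean and SD of each group of 3. Every panel spans the same number of log2 units. ANAPC5 and FZR1 are the panels in which the groups do not overlap, and control replicate 1 lies apart in CDC23.

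ANAPC1, the large subunit on which the others are built, had normalized log2 intensities of 9.85, 9.79 and 9.76 on control replicates 1, 2 and 3, and 9.83, 9.72 and 9.84 on Stau1 replicates 1, 2 and 3. The groups overlapped fully, and the change was -0.0054 (SE 0.10). RefSeq lists pseudogene copies of ANAPC1, of CDC27 and of ANAPC10, and probe positions were not analysed here, so these rows could include signal from copies. The bead numbers of the ANAPC1 row are fractions, as in a mean over at least 3 probes, and the table gives this row no chromosome.

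ANAPC4 (chromosome 4) and ANAPC5 (chromosome 12) join ANAPC1 in the platform that connects the catalytic subunits to the rest of the complex. ANAPC4 was at 10.00, 10.20 and 10.16 in control and at 10.19, 10.21 and 10.06 in Stau1 replicates 1 to 3, with overlapping groups and a change of 0.034 (SE 0.11). ANAPC5 was at 12.41, 12.41 and 12.42 in control and at 12.32, 12.34 and 12.40 in Stau1 replicates. All 3 Stau1 arrays lay below all 3 controls in ANAPC5, by a mean of -0.057 (SE 0.08, 95% interval -0.23 to 0.11, limma adjusted p = 0.999). Its control values spanned the least of the 9 genes (SD 0.0054, n = 3), while its bead error within an array was 2.21 to 4.24% of the intensity. Deposited intensities of ANAPC5 were 4276, 5080 and 6829 in control and 4841, 5572 and 5932 in Stau1 replicates, so the order of the arrays on the raw scale differs from that after normalization.

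ANAPC2 (chromosome 9), the cullin subunit that holds the RING protein ANAPC11 and with it forms the catalytic core, was read close to background. Its intensity was 1.38, 1.22 and 1.46 times the background mean on control replicates 1, 2 and 3, and 1.79, 1.27 and 1.57 times on Stau1 replicates 1, 2 and 3. The normalized log2 intensities were 5.70, 5.27 and 5.70 in control and 6.30, 5.37 and 6.06 in Stau1. Replicate 2 was the lowest of its group in both groups, and the groups overlapped. The change of 0.35 (SE 0.22, 95% interval -0.12 to 0.82) was the largest of the 9 genes and did not pass (limma adjusted p = 0.999). It depended on Stau1 replicates 1 and 2, being 0.16 without replicate 1 and 0.62 without replicate 2, and also on control replicate 2, without which it was 0.20. With the background inferred from all rows it was 0.019, with a smaller SE of 0.012. The limma unadjusted p was then 0.126, against 0.131 in the main setting.

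ANAPC10 (chromosome 4) helps the co-activator to hold a substrate's destruction box. It was at 9.79, 9.85 and 9.73 in control and at 9.71, 9.87 and 9.68 in Stau1 replicates 1 to 3. Replicate 2 was the highest in both groups. The groups overlapped, and the change was -0.037 (SE 0.11).

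**Figure D2:**
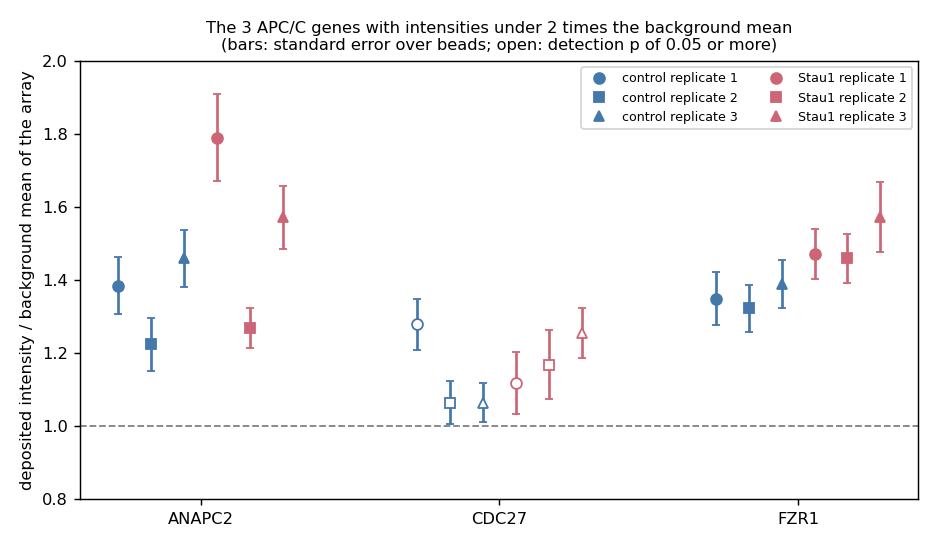
Deposited intensity divided by the background mean of the same array (vertical axis) for ANAPC2, CDC27 and FZR1 on the 6 arrays, with bars for the standard error over beads and open markers where the detection p was 0.05 or more. The values span 1.06 to 1.79, all CDC27 markers are open, and in FZR1 the 3 Stau1 arrays (1.46 to 1.57) lie above the 3 controls (1.32 to 1.39).

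CDC27, CDC16, CDC23 and ANAPC7 belong to the arm of the complex built from tetratricopeptide repeats, where CDC27 takes up the C-terminal tail of the co-activator. CDC27 (chromosome 17) had intensities of 102.5, 84.9 and 98.6 in control and 83.3, 106.3 and 116.4 in Stau1 replicates, against background means of 80.2, 79.8, 92.7, 74.6, 91.0 and 92.7. Its detection p ran from 0.053 (control replicate 1) to 0.26 (control replicate 3). CDC27 was thus not well above background in either group and no fold change can be given for it.

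CDC16 (chromosome 13) was at 11.11, 11.18 and 11.26 in control and at 11.26, 11.24 and 11.24 in Stau1 replicates 1 to 3. The Stau1 arrays were closely spaced (SD 0.012, n = 3) at the upper end of the controls, and the change was 0.07 (SE 0.09). ANAPC7 (chromosome 12) was at 8.89, 8.59 and 8.83 in control and at 8.80, 8.90 and 8.97 in Stau1 replicates, with a change of 0.12 (SE 0.13). Control replicate 2 was its lowest array, and without that array the change was 0.026.

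CDC23 (chromosome 5) was at 10.30, 10.93 and 10.87 in control and at 10.87, 10.81 and 10.84 in Stau1 replicates 1 to 3. Control replicate 1 lay far below the other 5 arrays, which were all between 10.81 and 10.93. On the deposited scale it read 1033 there and 1787 to 2422 elsewhere, and with 46 beads it had the most beads of the 6 arrays, with a bead error of at most 3.78% on any array. The change of 0.14 (SE 0.14) rested on that array and was -0.057 without it. This array was the lowest of the 6 for 3 of the 9 genes and the highest for 1, and control replicate 2 had the same counts. Among the 33 compared genes of the pathway lists described next, control replicate 1 was the lowest for 10 and the highest for 9. Of these 33, control replicate 2 was the lowest for 9, and control replicate 3 was the highest for 10. CCNB1 (cyclin B1), for example, was lowest on control replicate 1 (9.86 against 10.16 to 10.52), and UBE2C was highest on it (11.71 against 11.25 to 11.70).

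FZR1 (chromosome 19) encodes Cdh1, the co-activator that keeps the complex active after anaphase. Its intensity was 1.35, 1.32 and 1.39 times background on control replicates 1, 2 and 3, and 1.47, 1.46 and 1.57 times on Stau1 replicates 1, 2 and 3. It was detected on 6 of 6 arrays, with detection p from 0.016 to 0.042. The normalized log2 intensities were 5.61, 5.49 and 5.57 in control and 5.72, 5.78 and 6.06 in Stau1. All Stau1 arrays were above all controls, and the change was 0.30 (SE 0.14, 95% interval -0.012 to 0.61), a ratio of 1.23. This was the lowest unadjusted p of the 9 genes (0.058) and did not pass (limma adjusted p = 0.999). With 3 arrays against 3, groups that do not overlap give an exact two-sided permutation p of 0.1, the smallest possible. Such groups were found in 2 of the 9 genes, FZR1 upward and ANAPC5 downward, against 7.91% of all compared rows (4.51% upward and 3.4% downward). The size of the FZR1 change depended on the background step, and its SE became smaller along with it. The change was 0.14 (SE 0.08) with no background correction and 0.18 (SE 0.09) with an offset of 50. With the background from all rows it was 0.015 (SE 0.0080). The limma unadjusted p in these 3 settings was 0.081, 0.057 and 0.079. Without Stau1 replicate 3 the change was 0.20 (limma unadjusted p = 0.26).

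The other co-activator, CDC20, was far above background, at 125 to 166 times the background mean. Its normalized log2 intensities were 13.58, 13.56 and 13.60 in control and 13.71, 13.57 and 13.62 in Stau1 replicates 1 to 3. The groups overlapped, with a change of 0.06 (SE 0.07, 95% interval -0.10 to 0.22, limma adjusted p = 0.999). Whether FZR1 and CDC20 differed in their response was not tested.

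The remaining subunits formed a list of 5: ANAPC11, ANAPC13, CDC26, ANAPC15 (C11ORF51 in the table) and ANAPC16 (C10ORF104). ANAPC11, the RING subunit that receives the ubiquitin-carrying enzyme, was detected on 2 of 6 arrays and not compared. Its row averages at least 5 probes, by the fractions in its bead numbers, and its intensity was 4.50 to 5.51 times background although its detection p reached 0.27. Counting CDC20, 5 of these 6 rows were compared, and 0 passed in either direction (limma lowest adjusted p = 0.999). ANAPC13 changed by -0.038 (SE 0.09) and CDC26 by 0.07 (SE 0.08), both small proteins of the repeat arm. ANAPC15, which aids the release of CDC20 from the checkpoint, changed by -0.15 (SE 0.13).

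ANAPC16 was at 7.51, 7.87 and 8.21 in control and at 8.21, 7.94 and 7.96 in Stau1 replicates 1 to 3. Control replicates 1 and 3 were the lowest and the highest of the 6 arrays, so the spread among controls (SD 0.35, n = 3) exceeded the change of 0.17 (SE 0.18). BUB1B, the checkpoint protein BubR1, was at 7.55, 7.93 and 8.19 in control and at 8.14, 8.19 and 8.09 in Stau1, with a change of 0.25 (SE 0.17).

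**Figure D3:**
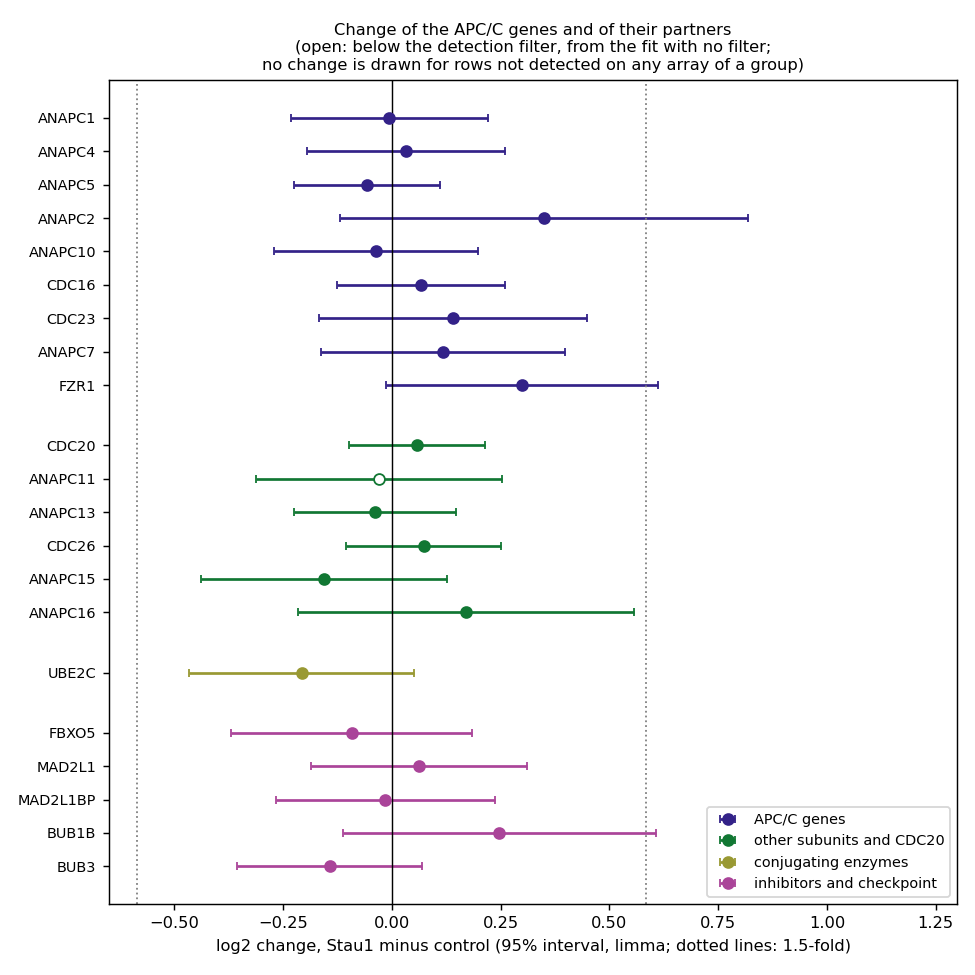
Log2 change, Stau1 minus control, with its 95% interval (limma) for the APC/C genes, the other subunits with CDC20, the conjugating enzymes and the inhibitors and checkpoint genes. Dotted lines stand for 1.5-fold, and the open marker is ANAPC11, which was below the detection filter. Every interval includes 0, those of ANAPC2, FZR1 and BUB1B reach past the upper dotted line, and rows not detected on any array of a group are left out.

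Ubiquitin reaches the complex on E2 enzymes. UBE2C, which begins chains, was detected on 6 arrays and was at 11.71, 11.70 and 11.28 in control and 11.47, 11.25 and 11.35 in Stau1 replicates, with a change of -0.21 (SE 0.12). UBE2S, which lengthens chains, and UBE2D1, another E2 that can begin them, were each detected on 1 of 6 arrays, a Stau1 array, and were not compared. UBE2C, the 1 enzyme of the 3 that was compared, did not pass (limma adjusted p = 0.999).

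Of 6 inhibitors and checkpoint genes, 5 were compared and 0 passed. FBXO43, an inhibitor known from meiosis, was detected on 0 arrays. FBXO5 (Emi1), which blocks the complex in interphase, changed by -0.09 (SE 0.13). MAD2L1 and BUB3, parts of the complex that captures CDC20 at the checkpoint, changed by 0.06 (SE 0.12) and -0.14 (SE 0.10). MAD2L1BP, which helps to take that complex apart, changed by -0.014 (SE 0.12).

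Transcripts of 23 substrates of the complex were also listed, of which 22 had a row and all of those were compared. None passed an adjusted p of 0.05 (limma, lowest 0.999), and 1 of the 22 had an unadjusted p under 0.05, near the 3.73% of all rows. In the Stau1 group 9 had a higher and 13 a lower mean, where 49.4% of all rows were higher. Their median change was -0.014. PTTG1 (securin), whose destruction frees separase, changed by -0.16 (SE 0.10), CCNA2 (cyclin A2) by -0.025 (SE 0.08) and CCNB1 by -0.012 (SE 0.15). The 1 row past the unadjusted threshold was CENPF, a kinetochore protein, at 9.24, 9.59 and 9.05 in control and 9.09, 8.80 and 8.90 in Stau1 replicates, with a change of -0.36 (SE 0.15). Its groups overlapped.

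Read per array, the median of the 9 genes lay at -0.03, -0.011 and 0.0010 from each gene's mean on control replicates 1, 2 and 3, and at 0.03, 0.04 and 0.04 on Stau1 replicates 1, 2 and 3 (log2). The same median over all compared rows stayed between -0.0020 and 0.0028. The 3 Stau1 medians lay above the 3 control medians, and the SD of this median within a group, pooled over both, was 0.012. The medians over all compared rows were ordered the same way, at 0.0015 to 0.0028 (Stau1) and -0.0020 to 0.00093 (control). The mean of the 9 genes, by contrast, overlapped between the groups, at -0.010 on Stau1 replicate 2 and -0.0050 on control replicate 3. For single genes the median SD within a group was 0.07 (control) and 0.08 (Stau1) among the 9, and 0.17 and 0.12 over all rows. The rows were not matched for intensity, so whether the 9 genes vary less than rows of like intensity was not tested. Without control replicate 1 the median change of the 9 genes was 0.021. Under a stricter filter, a detection p below 0.01 on every array, which leaves out ANAPC2 and FZR1, it was 0.034.

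The 5 rows outside these lists whose profile over the 6 arrays lay nearest to the mean profile of the 9 genes were HIF1AN, TMED10P, YIF1A, SLC2A1 and RPUSD2. Their root mean square difference from it was 0.017 to 0.027 on the log2 scale. The 9 genes themselves lay 0.042 to 0.31 from their own mean profile, and all other compared rows had a median of 0.16. Single large deviations weigh on that mean profile, which was 0.072 on Stau1 replicate 1 and -0.075 on control replicate 1. ANAPC2, read close to background, was at 0.56 on the former, and CDC23 was at -0.47 on the latter. Whether the 5 rows have any tie to the complex was not tested.

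**Figure D4:**
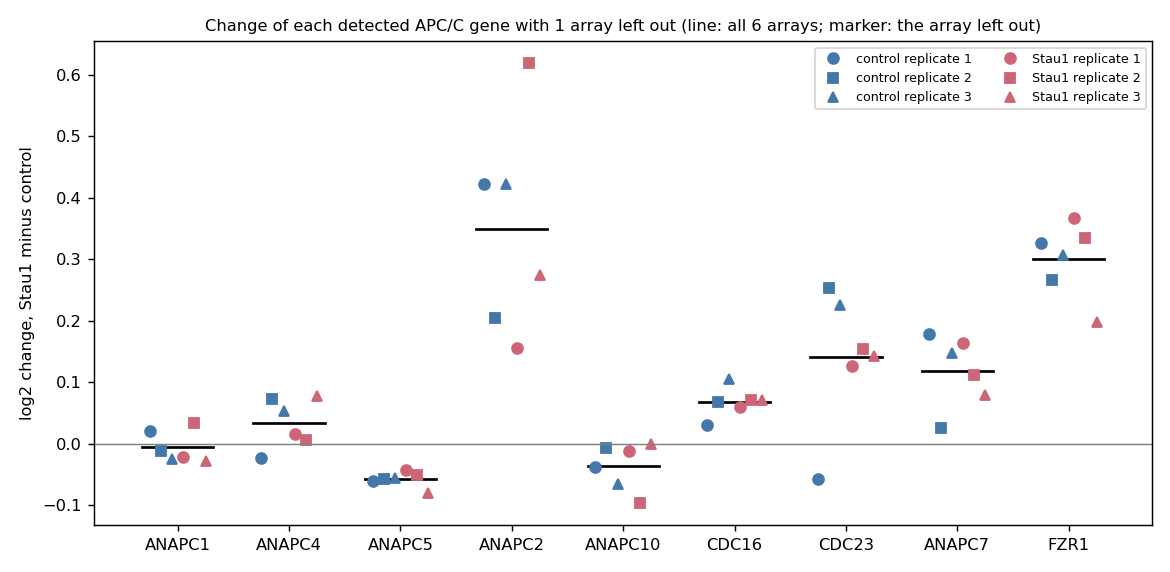
Log2 change, Stau1 minus control (vertical axis), of the 9 compared genes with all 6 arrays (black lines) and after leaving out the array shown by each marker. CDC23 falls below 0 without control replicate 1 (-0.057), ANAPC2 spans 0.16 to 0.62, and FZR1 stays between 0.20 and 0.37.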

How the data were processed

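Total RNA of 3 control and 3 Stau1 samples was measured on Illumina HumanWG-6 v3 arrays and exported by the authors from BeadStudio. Per the file headers the deposited intensity values were not normalized, with 1 row per gene. A detection p-value, a standard error over beads and a number of beads were deposited beside each intensity. The genome build was not given in the sources used here. Members, lists and tests were chosen with earlier results of these data known.

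Background was estimated from the detection p-values of the 30932 rows of 1 probe (whole bead numbers, detection p in steps of 1 in 759) and removed by normexp with an offset of 16, followed by quantile normalization and log2 (limma 3.58.1, R 4.3.3). Groups were compared with lmFit and eBayes with a variance trend, and p-values were adjusted by Benjamini-Hochberg over the 13285 rows (35.1%) that had detection p-values below 0.05 on 3 or more arrays. The methods' t-test, stated by the study for immunoprecipitated RNA after variance stabilization and robust spline normalization, was an alternative and was run here on the values above without those steps. The study's results also apply a P-value below 0.05 with a change over 2-fold to total RNA, counted in probes. By this t-test, 0 of the 13285 compared rows, which are genes and not probes, had an unadjusted p under 0.05 and a change over 2-fold. Background means were 74.6 to 92.7, 12730 to 13469 rows were detected per array, and the median was 40 to 41 beads per row. The number of arrays limits the precision.

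Named are all members, STAU1, every gene of the lists of subunits, enzymes and inhibitors, of the substrates CCNB1, PTTG1 and CCNA2, and the 5 rows nearest to the members' mean profile. CENPF was named after its values were seen. Older symbols were matched for 2 subunits through RefSeq (GRCh38.p14 names), and KIF22 had no row. Alternatives were other backgrounds, offsets, normalizations, filters, variance models, weights for arrays, the replicate number as a block, and omission of single arrays.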

Additional observations from a re-analysis of the deposited data

How the results depend on the processing

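No member passed an adjusted p of 0.05 in limma under the 10 other settings with all 6 arrays or with 1 array left out, and none by the methods' t-test after Benjamini-Hochberg. Of 142 values of single members under these alternatives, 133 kept their direction and side of the threshold, and 9 changed direction. With median scaling, which moved the median of all rows to 0.068, ANAPC1 was 0.085, ANAPC10 was 0.048 and ANAPC5 was 0.033. With array weights ANAPC1 was 0.022 and ANAPC4 was -0.037. With 1 array left out, ANAPC1 ran from -0.029 to 0.035, ANAPC4 from -0.024 to 0.078 and CDC23 from -0.057 to 0.25. The members' median was 0.16 with median scaling, 0.019 with the background from all rows, 0.034 under the stricter filter (detection p below 0.01 on every array) and 0.040 with array weights, and ran from 0.021 (without control replicate 1) to 0.10 (without control replicate 3) with 1 array left out. Over all rows, 0 passed in limma when no array was omitted and 0 to 39 when 1 was, the 39 without control replicate 3, and 0 members or other genes of the pathway were among them. The rows with an unadjusted p under 0.05 numbered 495, and 229 with median scaling, 317 with the stricter filter, 1290 with array weights, 1566 of all 37879 rows with no filter, and 238 (without Stau1 replicate 3) to 1686 (without control replicate 3) with 1 array left out, so the share over all rows beside which the members are read depends on these choices. The causes were not tested. FZR1 had an unadjusted p under 0.05 with no filter (0.042), no variance trend (0.038), array weights (0.013) and without Stau1 replicate 1 (0.047), and ANAPC2 with array weights (0.024), the replicate block (0.046) and without Stau1 replicate 2 (0.0073). The adjusted p of these 2 genes stayed between 0.38 and 1.

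Same-numbered arrays did not deviate together in a uniform way. The r of their deviations from the group means was 0.015, 0.26 and -0.14 for replicates 1, 2 and 3. Differently numbered arrays were not compared in this way, and the replicate numbers were not used for pairing in the main setting. Under the replicate block 0 rows passed in limma, 605 had an unadjusted p under 0.05 (495 without the block), and the members' median was 0.068. A slide block was not run, as the table names no slide. Signal over background limits ANAPC2, CDC27 and FZR1.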
